A study of Mus musculus with 2 samples.

Results

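The 9 genes described here are 6 matrix metalloproteinases (Mmp2, Mmp3, Mmp9, Mmp12, Mmp14 and Mmp19) and 3 tissue inhibitors of metalloproteinases (Timp1, Timp2 and Timp3). They were chosen by name, not by their values, and are 9 of the 56954 features of the count matrix, all of them detected. The cells came from mouse hearts, cardiomyocytes left aside, 7 days after transverse aortic constriction (TAC), a surgical narrowing of the aorta that loads the left ventricle with pressure. Per the labels, 3 control mice and 4 Nts KO mice (lacking neurotensin), all operated and 6 to 8 weeks old, each received a hashtag antibody of its own, and live cells of all mice were sorted into 1 tube. The genotype entry of the library nevertheless reads WT, and what kind of allele the Nts KO is, or in which cells it acts, is not given in the sources used here. The cells could not be assigned to mice, so control and KO hearts were not compared, unoperated hearts were not part of the pool, and every comparison below is between cell classes within 1 library. There is no replicate and no test. Intervals in parentheses are exact 95% intervals that cover counting error only.

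Matrix metalloproteinases are zinc-dependent enzymes that cut collagens, elastin, proteoglycans and latent growth factors outside the cell. Most are secreted as inactive proenzymes, a few sit in the membrane, and the Timp proteins block them by binding the active site. In the pressure-loaded heart this system is known for taking part in the turnover of the interstitial matrix that accompanies fibrosis and dilation, with fibroblasts, macrophages and neutrophils as known sources of different members.

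RefSeq promoter windows (GRCm38.p6, the 250 bases before each annotated start) were matched for 6 of the 9 members, namely Mmp3, Mmp12, Mmp14, Timp1, Timp2 and Timp3. The 3 windows below are shown because they belong to a fibroblast enzyme, a macrophage enzyme and a fibroblast inhibitor, and because they differ in the short motifs they hold. Capitals mark the AP-1 motif (TGANTCA, which reads the same on both strands), the TATA motif (TATAAA or TTTATA) and the GC box (GGGCGG or CCGCCC), searched on both strands. No match overlapped another.
Mmp3, chr9:7445572-7445821, plus strand: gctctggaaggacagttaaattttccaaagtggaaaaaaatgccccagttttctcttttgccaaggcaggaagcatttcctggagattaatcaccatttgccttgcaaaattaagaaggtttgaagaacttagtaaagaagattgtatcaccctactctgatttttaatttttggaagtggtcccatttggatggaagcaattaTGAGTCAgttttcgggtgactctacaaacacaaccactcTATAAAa
Mmp12, chr9:7347124-7347373, plus strand: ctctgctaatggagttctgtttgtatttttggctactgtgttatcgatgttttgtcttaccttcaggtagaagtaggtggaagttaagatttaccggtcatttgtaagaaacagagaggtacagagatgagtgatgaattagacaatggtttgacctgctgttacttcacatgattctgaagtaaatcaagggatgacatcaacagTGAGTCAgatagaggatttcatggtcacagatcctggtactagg
Timp1, chrX:20869916-20870165, plus strand: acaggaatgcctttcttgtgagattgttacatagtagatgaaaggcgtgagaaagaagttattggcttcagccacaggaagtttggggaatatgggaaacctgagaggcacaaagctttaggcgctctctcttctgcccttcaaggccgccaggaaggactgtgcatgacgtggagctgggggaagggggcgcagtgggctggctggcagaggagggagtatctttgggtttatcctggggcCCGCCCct

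The stromelysin gene Mmp3 held 1 AP-1 motif whose first base lies 46 bases before the start, and 1 TATA motif 7 bases before it. The window of Mmp12 printed above belongs to the second of 2 RefSeq starts and held 1 AP-1 motif 44 bases before that start. The window of the other Mmp12 start (chr9:7344147-7344396) held none of the 3 motifs. The Timp1 window held neither AP-1 nor TATA, but 1 GC box 8 bases before the start. A GC box was also found in the windows of Timp2 (37 bases before the start), Timp3 (15 bases) and Mmp14, which had 2 (19 and 13 bases). Among all 32851 windows of the same length, 6.75% held the AP-1 motif, 12.4% the TATA motif and 32.7% a GC box. These matches describe letters in the windows and say nothing of binding.

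The library held 69993559 UMIs (unique molecular identifiers, each counted as 1 captured transcript) in 9369 barcodes, with 2567 to 42567 UMIs and a median of 6663 per barcode. Leaving out 357 barcodes that Scrublet scored as doublets (3.81%) kept 9012 cells and 65360456 UMIs, which were sorted into classes by gates on raw UMIs that contained no Mmp or Timp gene. The classes were 4853 fibroblasts (53.9%), 1854 macrophages, 275 classical and 89 non-classical monocytes, 94 neutrophils, 480 endothelial cells, 55 mural cells (pericytes and smooth muscle), 121 dendritic cells, 106 NK cells, and 658 T and B cells. A further 96 immune cells passed no class gate. Another 331 cells, whose panel markers were mixed or too few for a lineage, were left out. Most markers that took no part in the gates matched the names. Dcn, a fibroblast proteoglycan, reached 19745 CPM (counts per 1e+06 UMIs of the class) in fibroblasts against 302 in macrophages, and the cardiomyocyte gene Myh6 had at most 29 UMIs in any of the main classes. Tnnt2, the other cardiomyocyte gene checked, had 322 UMIs in fibroblasts and 67.9 CPM in mural cells. Mural cells also held the T cell gene Trac at 71.6 CPM, against 638 in T cells. Hdc, a neutrophil-list gene, had 691 CPM in neutrophils and 90.6 in classical monocytes. Others went against the names: Cd177, also of the neutrophil list, had 33.2 CPM in neutrophils and 91.9 in classical monocytes, the monocyte-list gene Vcan 197 CPM in classical monocytes and 355 in fibroblasts, and the macrophage-list gene Lyz2 11991 CPM in macrophages and 19264 in classical monocytes. Median depth ran from 3658 UMIs per cell in NK cells to 7996 in dendritic cells among the classes listed, with 7685 in fibroblasts and 3888 in T and B cells. T and B cells are taken below as the level that free RNA gives to cells that make little of these proteins. They still held macrophage RNA (C1qa at 1885 CPM, against 6849 in macrophages), so values are also given for the 493 T and B cells with at most 2 UMIs of the C1q genes (C1qa at 39.3 CPM).

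**Figure D1:**
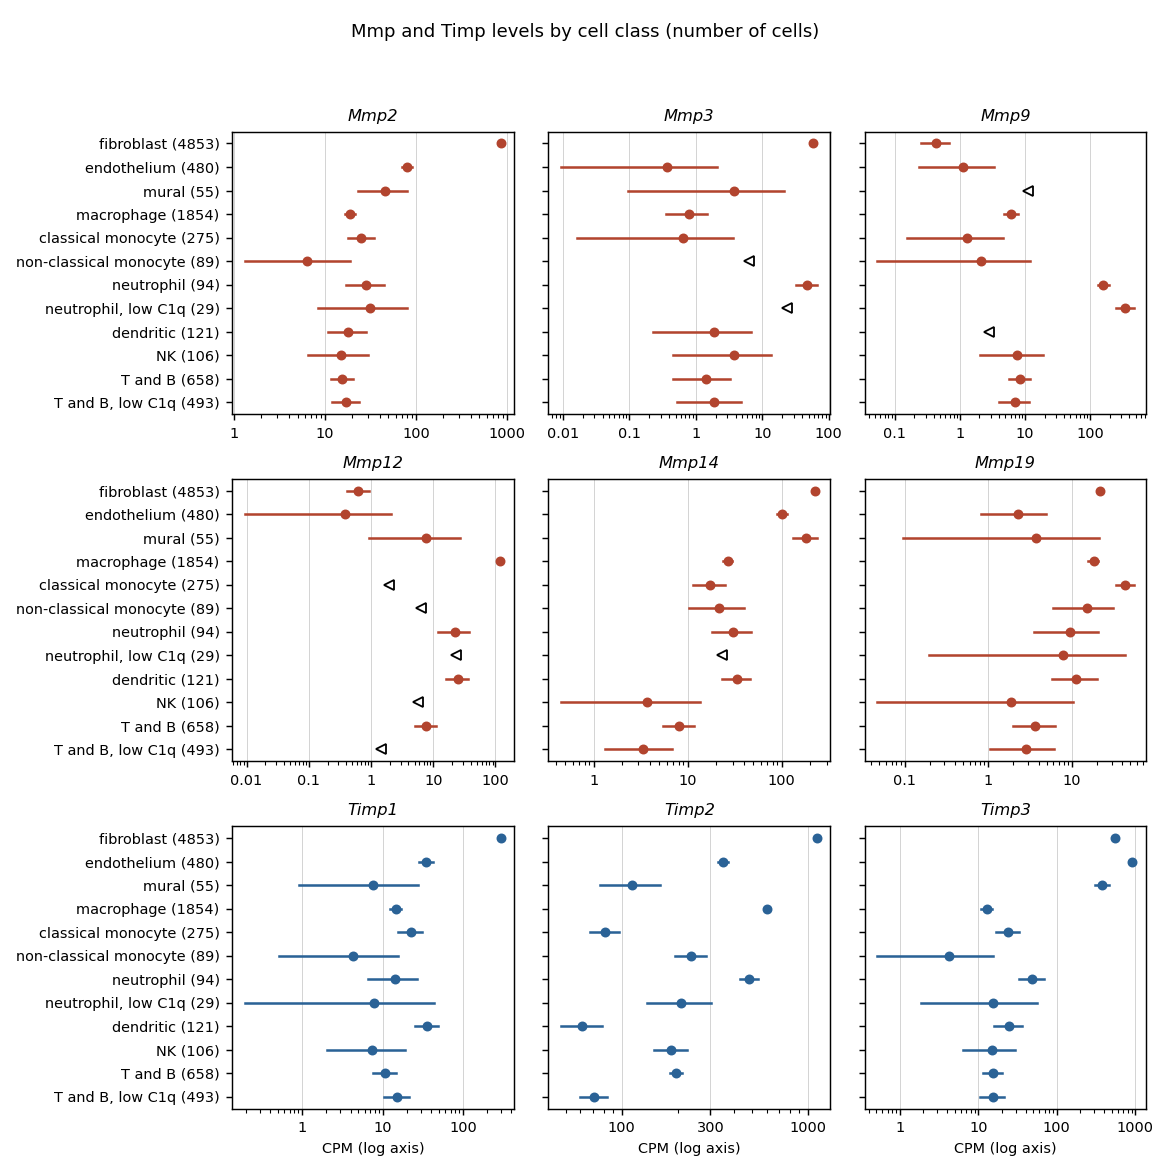
Level of each of the 9 genes (CPM, log axis) in 12 cell classes, with the number of cells in brackets. Points are class sums, lines exact 95% Poisson intervals, red marks enzymes, blue marks inhibitors, and open triangles are classes at 0 UMIs drawn at 3 counts. Mmp2, Mmp3, Mmp14, Timp1 and Timp2 have their highest point in fibroblasts, Timp3 in endothelium, Mmp9 in neutrophils, Mmp12 in macrophages and Mmp19 in classical monocytes.

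Most of the family was fibroblast RNA in this pool, with 1 clear macrophage enzyme, 1 neutrophil enzyme and 1 inhibitor, Timp3, that was higher in endothelium. Between fibroblasts and macrophages, 8 of the 9 members had the 100 UMIs needed for a comparison. Of these, 5 were at least 2-fold higher in fibroblasts (Mmp2, Mmp3, Mmp14, Timp1 and Timp3), beside 29.7% of the 12949 genes compared in the same way. Mmp12 was at least 2-fold lower, beside 14.5% of genes, and Mmp19 and Timp2 were neither. The median log2 ratio was 3.65 over the members and 0.32 over all genes compared. Mmp3 (9 macrophage UMIs) and Mmp12 (25 fibroblast UMIs) reached 100 UMIs only through the class where they were high, so the minimum favoured their calls, and these counts describe the members without supporting a claim on them. With the T and B level subtracted, the fibroblast to macrophage ratios given below were 254 for Mmp2, 216 for Mmp3, 73.5 for Timp1 and 2068 for Timp3. For Mmp3 and Timp3 macrophages were then at the floor of 3 counts, which sets the size of these ratios. Timp2 passed 2-fold as well, which made 6 members higher. The subtracted level was that of all T and B cells, which held macrophage RNA and more Timp2 than those with few C1q UMIs. Subtraction of the latter level was not run, so this Timp2 call carries little.

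Mmp2 (gelatinase A, ENSMUSG00000031740, chr8:92827291-92853420, plus strand) is a secreted enzyme that cuts denatured collagen and is activated at the cell surface by Mmp14 together with Timp2. Fibroblasts held 863 CPM (854 to 872) and 94.4% of all Mmp2 UMIs, and after thinning every cell to 2500 UMIs, 82.2% of fibroblasts had at least 1 UMI, against 4.56% of T and B cells. The fibroblast level was 45.8-fold (40.1 to 52.6) that of macrophages, and 28.4-fold when Leiden clusters replaced the gates. Macrophages, at 18.8 CPM, were at the background: their ratio to T and B cells with few C1q UMIs was 1.10 (0.774 to 1.62). Endothelium lay between, at 80.3 CPM (69.9 to 91.8), which was 4.71-fold (3.30 to 6.90) that background, and mural cells held 45.2 CPM from 12 UMIs. Without thinning, 96.7% of fibroblasts had an Mmp2 UMI, with a median of 6 per cell.

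Mmp9 (gelatinase B, ENSMUSG00000017737, chr2:164940780-164955850, plus strand) cuts similar substrates and is stored in neutrophil granules. Neutrophils held 160 CPM (130 to 194), from 101 UMIs in 45 of the 94 cells and at most 6 in any cell. Fibroblasts held 0.427 CPM, endothelium 1.13, classical monocytes 1.29 (2 UMIs), macrophages 6.11 and T and B cells 8.46. Neutrophils stood apart from every other class, and the low values of macrophages did not exceed those of lymphocytes. T and B cells also held neutrophil RNA, however. S100a8, a gene of the neutrophil gate, was 281 CPM there (342 where C1q UMIs were few) and 16.2 in macrophages. The lymphocyte level is thus no clean background for Mmp9, and whether macrophages make some was not tested. After thinning, 26.6% of neutrophils and 1.98% of T and B cells had an Mmp9 UMI.

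Mmp9 and Timp2 were the 2 members with enough UMIs to compare neutrophils with classical monocytes, the blood-derived cells that enter the heart beside them. Both were at least 2-fold higher in neutrophils, beside 6.21% of the 3123 genes compared, and none was at least 2-fold lower, beside 6.92%. Mmp9 reached 100 UMIs only through the neutrophils, with 101 of its 103 UMIs, so the minimum favoured its call and the count supports nothing. At a minimum of 20 UMIs, 4 members were higher and 1 lower. The share of all genes at that minimum was not computed, so these counts have no background. The ratio was 124 (33.5 to 1040) for Mmp9 and 5.98 (4.84 to 7.41) for Timp2, and the monocytes held 2 Mmp9 UMIs. With Leiden clusters the Mmp9 ratio was 58.0. With the level of all T and B cells, macrophage RNA included, subtracted, the ratios were 78.4 for Mmp9 and 149 for Timp2. Monocytes were then at the floor of 3 counts, which sets the size of these ratios. The neutrophil gate, unlike the monocyte gate, set no limit on C1q, and its cells held C1qa at 4692 CPM and Dcn at 832 CPM. In the 29 neutrophils with at most 2 C1q UMIs (C1qa at 61.9 CPM), Mmp9 rested on 45 UMIs in 15 cells and was 348 CPM (254 to 466), a ratio of 271 (70.7 to 2304) to classical monocytes. Timp2 was 209 CPM there (138 to 304, 27 UMIs), and its ratio 2.58 (1.63 to 3.93). The neutrophil difference in Timp2 was thus smaller by more than 1.5 times in cells with little macrophage RNA, while that of Mmp9 was not smaller.

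Mmp3 (stromelysin-1, ENSMUSG00000043613, chr9:7445822-7455975, plus strand) has broad substrates, including proteoglycans, fibronectin and other proenzymes, and its promoter window is the one above with both AP-1 and TATA motifs. Its 2307 fibroblast UMIs gave 57.9 CPM (55.6 to 60.3), 73.7-fold (38.8 to 161) over macrophages, which held 9 UMIs. The transcripts were concentrated in few cells: 415 of 4853 fibroblasts (8.55%) had an Mmp3 UMI, and 62 cells with 10 or more held 1387 UMIs, or 60.1% of the total. The richest cell held 121. After thinning, 4.90% of fibroblasts and 0.152% of T and B cells had a UMI. The neutrophil value of 47.4 CPM was 1 cell with 29 of 30 UMIs, without which it was 1.64 CPM, and neutrophils with few C1q UMIs had none.

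Mmp12 (macrophage elastase, ENSMUSG00000049723, chr9:7344381-7369499, plus strand) degrades elastin and is named for the cell that makes it. Macrophages held 118 CPM (111 to 124), from 1348 UMIs in 155 cells, 187-fold (126 to 291) over fibroblasts at 0.628 CPM. Classical and non-classical monocytes held 0 UMIs in 275 and 89 cells. Dendritic cells held 24.6 CPM and neutrophils 22.1, the latter at 0 among neutrophils with few C1q UMIs. Of the 27 UMIs in B cells, 18 were in 1 cell, and the 493 T and B cells with few C1q UMIs held 0. The 96 immune cells without a class held 100 CPM from 45 UMIs in 6 cells. Apart from those unclassed cells, every class held far less Mmp12 than macrophages.

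Mmp14 (MT1-MMP, ENSMUSG00000000957, chr14:54431612-54445364, plus strand) is a membrane-anchored collagenase and the activator of pro-Mmp2. It was the most widely spread of the enzymes. Fibroblasts held 229 CPM (224 to 233), mural cells 181 (133 to 240) and endothelium 99.8 (88.2 to 113), against 26.7 in macrophages, 17.4 in classical monocytes and 8.18 in T and B cells. The ratio of mural cells to fibroblasts was 0.792 (0.583 to 1.05), so these neighbours in the order did not differ beyond counting error. Fibroblasts with an Mmp14 UMI had an Mmp2 UMI in 84.5% of cells (82.8 to 86.1) after thinning, and those without in 80.7% (79.3 to 82.2).

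Mmp19 (ENSMUSG00000025355, chr10:128790910-128800824, plus strand) is a secreted enzyme with basement membrane proteins among its substrates. It was low throughout and did not separate fibroblasts (21.4 CPM) from macrophages (18.2 CPM), with a ratio of 1.18 (1.01 to 1.38). Its highest level among classes of 30 or more cells was in classical monocytes, at 43.1 CPM (33.4 to 54.7), which was 2.37-fold (1.77 to 3.14) the macrophage level. T and B cells held 3.67 CPM and endothelium 2.25. Tmem198b, with 909 UMIs, and Gm47093, with 45, overlap Mmp19 on the other strand, and whether the authors counted by strand is not given in the sources used here, so reads may have been shared.

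Timp1 (ENSMUSG00000001131, chrX:20870166-20874735, plus strand) is the inducible inhibitor of the family. Fibroblasts held 294 CPM (289 to 300), 20.2-fold (17.3 to 23.7) over macrophages, whose 14.6 CPM matched that of T and B cells with few C1q UMIs (ratio 0.961, 0.655 to 1.45). Endothelium held 34.9 CPM (28.2 to 42.8) and dendritic cells 35.9 (25.4 to 49.3). The 96 immune cells without a class held 93.3 CPM from 42 UMIs in 8 cells. Timp1 was a fibroblast transcript with an exception among macrophages described below.

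Timp2 (ENSMUSG00000017466, chr11:118301069-118355740, minus strand) inhibits most family members and is also the partner through which Mmp14 captures pro-Mmp2. It was high in both fibroblasts (1116 CPM, 1106 to 1126) and macrophages (602 CPM, 588 to 616), a ratio of 1.85 (1.81 to 1.90). Endothelium held 350 CPM, non-classical monocytes 235, mural cells 113 and classical monocytes 81.0. T and B cells held 196 CPM, but 71.1 where C1q UMIs were few, and the classical monocyte level was within counting error of the latter (1.14-fold, 0.892 to 1.45). Dendritic cells were lowest among the named classes, at 61.5 CPM.

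Timp3 (ENSMUSG00000020044, chr10:86300372-86349506, plus strand) binds to the matrix and also inhibits several Adam and Adamts enzymes. Endothelium held 914 CPM (878 to 951), fibroblasts 557 (549 to 564) and mural cells 377 (307 to 459). Macrophages held 12.8 and T and B cells 15.2. Among the 7 members with 100 UMIs over both classes, it was the 1 with a higher level in endothelium than in fibroblasts (1.64-fold, 1.57 to 1.71), which did not reach 2-fold. Mmp9, with 3 and 17 UMIs, was not compared.

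Between endothelium and fibroblasts, 7 members could be compared. None was at least 2-fold higher in endothelium, beside 12.0% of the 12313 genes compared, and 6 were at least 2-fold lower (Mmp2, Mmp3, Mmp14, Mmp19, Timp1 and Timp2), beside 14.7%. The median log2 ratio was -2.79 over the members and 0.09 over all genes. The smallest of the 6 differences was that of Mmp14, at 2.29-fold (2.03 to 2.60) in favour of fibroblasts, and the largest that of Mmp3, with 1 endothelial UMI. Mmp3, Mmp19 (6 endothelial UMIs) and Timp1 (93) reached 100 UMIs only through the fibroblasts. The endothelial to fibroblast ratio of Timp2 was 0.313, and 0.167 with the level of all T and B cells subtracted. Those cells held macrophage RNA, and subtraction of the lower Timp2 level of T and B cells with few C1q UMIs was not run. With Leiden clusters, or at 3-fold, 5 members were lower, but the share of all genes was not computed in these settings.

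Fibroblasts were further divided by gates named for their marker genes, and cells in exactly 1 gate were compared: Cthrc1/Postn (activated matrix-producing genes, 106 cells), Pi16/Cd248 (1283), Cxcl14/C3 (264), Hsd11b1/Penk (248), Igfbp3/Osr1 (48), Il6/Tnc/Col26a1 (104) and Wif1/Comp/Fmod (34). Another 809 fibroblasts passed several gates and 1957 passed none. Of the 7 members with 100 UMIs over these subsets, 5 differed at least 2-fold between the highest and the lowest subset (Mmp3, Mmp14, Mmp19, Timp1 and Timp3). That share is read beside 59.1% of the 9999 genes compared, so a call of this kind was common. The median log2 range was 1.91 over the members and 1.15 over all genes.

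The inhibitors divided the subsets between them. Timp1 was 729 CPM (676 to 784) in the Cthrc1/Postn subset, 287 in Igfbp3/Osr1, 263 in Wif1/Comp/Fmod, 257 in Pi16/Cd248, 249 in Il6/Tnc/Col26a1, 240 in Cxcl14/C3 and 136 (118 to 155) in Hsd11b1/Penk. The Cthrc1/Postn cells stood alone at the top and the Hsd11b1/Penk cells alone at the bottom, 5.38-fold (4.61 to 6.28) apart (8.20-fold with doubled gates), and each of the 5 subsets between overlapped its neighbours. A single Cthrc1/Postn cell held 120 Timp1 UMIs, and without it the level was 615 CPM. After thinning, 59.4% of the Cthrc1/Postn cells and 20.97% of the Hsd11b1/Penk cells had a Timp1 UMI, and the Wif1/Comp/Fmod cells came close to the former at 55.9%. Counting fibroblasts in every gate they passed gave 826 CPM in 324 Cthrc1/Postn cells and 172 in 542 Hsd11b1/Penk cells, with the 93 Wif1/Comp/Fmod cells now second at 568.

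Timp3 had another order. It was 1619 CPM (1475 to 1774) in the Igfbp3/Osr1 subset and 1407 (1262 to 1564) in Wif1/Comp/Fmod, then 701 in Hsd11b1/Penk, 535 in Pi16/Cd248, 482 in Cxcl14/C3, 439 in Cthrc1/Postn and 334 (301 to 370) in Il6/Tnc/Col26a1. The top pair overlapped, and both lay well above the rest. The Igfbp3/Osr1 level was 4.85-fold (4.22 to 5.57) that of the Il6/Tnc/Col26a1 subset, and 93.8% of its thinned cells had a Timp3 UMI. The gate is narrow: 38 of the 84 cells that passed it had 4 or 5 UMIs of its genes, 54 cells that did not pass had 2 or more, and over all 84 cells, those in several gates included, Timp3 was 1080 CPM. Timp2 varied less, from 743 CPM in Il6/Tnc/Col26a1 to 1405 (1383 to 1427) in Pi16/Cd248, a 1.89-fold range, and the Pi16/Cd248 cells alone stood above the others.

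Mmp3 was also highest in the Igfbp3/Osr1 subset, at 262 CPM (206 to 329), then 120 in Cxcl14/C3, 115 in Wif1/Comp/Fmod, 55.1 in Hsd11b1/Penk, 38.7 in Il6/Tnc/Col26a1, 29.6 in Cthrc1/Postn and 25.02 (22.2 to 28.1) in Pi16/Cd248. The range was 10.5-fold (8.02 to 13.6). Earlier results on these data had named Mmp3 together with Igfbp3 and Osr1, so its place at the top is a description and no independent result. It also rested on few cells. The 75 UMIs came from 7 of 48 cells, 4 of which held 67, and without the richest cell the level was 167 CPM. In the Cxcl14/C3 subset 1 cell held 87 UMIs, and without it the level was 73.8 CPM. As shares of thinned cells, the Cxcl14/C3 (8.71%), Igfbp3/Osr1 (8.33%) and Wif1/Comp/Fmod (8.82%) subsets were alike, and the Pi16/Cd248 subset was lower (2.03%).

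Mmp2 varied least among the enzymes, from 635 CPM (589 to 684) in Il6/Tnc/Col26a1 to 1017 (971 to 1064) in Cxcl14/C3, a 1.60-fold range (1.47 to 1.75). Mmp14 was 277 CPM in Il6/Tnc/Col26a1 and 275 in Cthrc1/Postn, 224 in Cxcl14/C3, 209 in Pi16/Cd248, 202 in Hsd11b1/Penk, 112 in Igfbp3/Osr1 and 73.8 (43.8 to 117) in Wif1/Comp/Fmod. The fold of 3.75 (2.33 to 6.41) rested on 18 UMIs in the lowest subset. It did not hold when cells in several gates were counted, where the 93 Wif1/Comp/Fmod cells had 217 CPM and the ratio was 1.23. For Mmp19 the range of 2.77-fold had an interval from 0.892 to 13.9, since the Igfbp3/Osr1 subset held 3 UMIs. Mmp9 and Mmp12 had 6 and 8 UMIs over all subsets and were not compared.

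**Figure D2:**
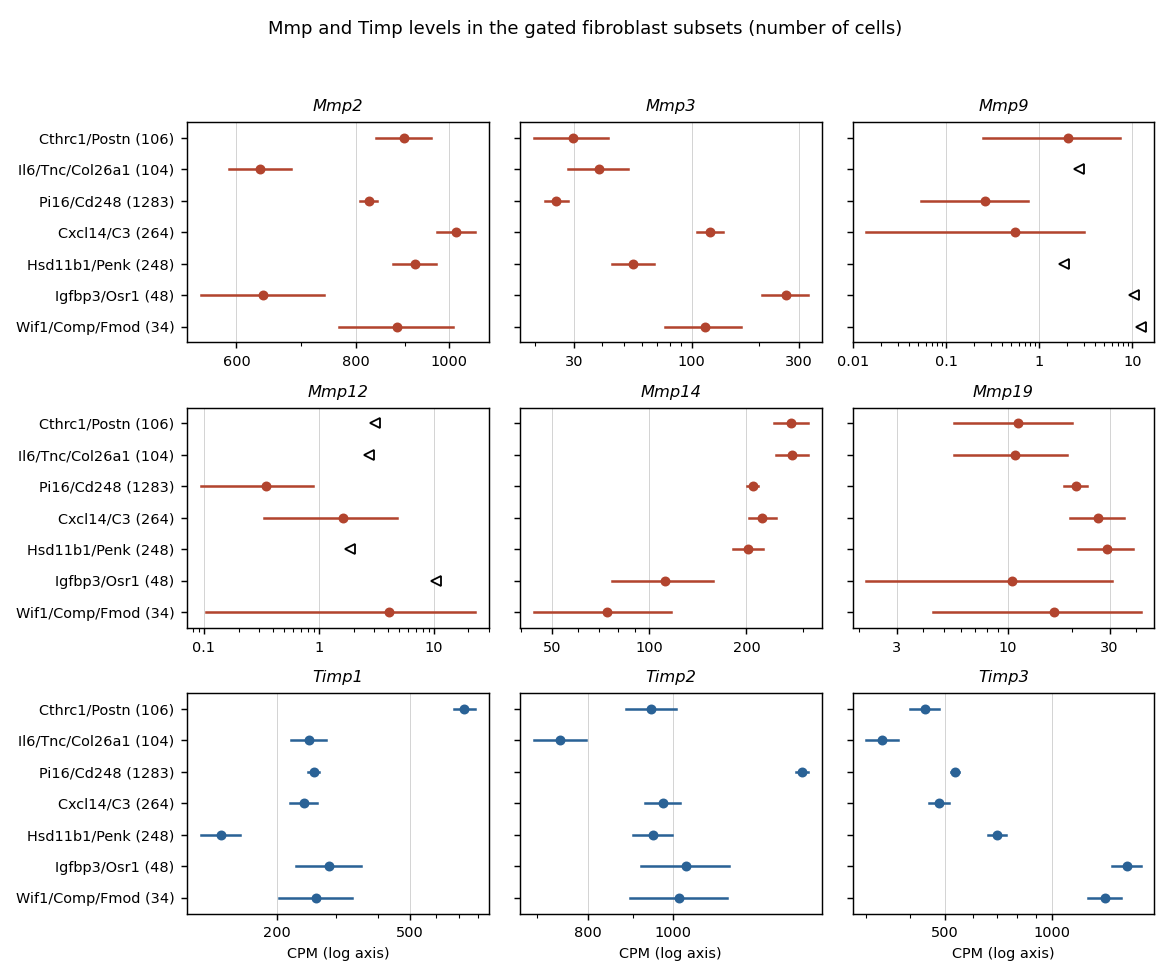
Level of each gene (CPM, log axis, different range in each panel) in 7 gated fibroblast subsets, with the number of cells in brackets, exact 95% Poisson intervals as lines and open triangles for subsets at 0 UMIs drawn at 3 counts. Timp1 peaks in Cthrc1/Postn cells (729 CPM), Timp2 in Pi16/Cd248 cells (1405 CPM) and Timp3 in Igfbp3/Osr1 (1619 CPM) and Wif1/Comp/Fmod cells (1407 CPM).

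The same directions appeared when all 4853 fibroblasts were binned by their Postn UMIs after thinning, Postn being a matricellular gene of activated fibroblasts. From 2537 cells without a Postn UMI to 668 cells with 6 or more, Timp1 went from 223 to 251, 359 and 478 CPM. Timp3 went the other way, from 753 to 466, 362 and 329 CPM, and Mmp3 from 89.3 to 45.6, 22.7 and 22.4 CPM. The inhibitors Timp1 and Timp3 thus crossed along this axis, with nearly equal levels in the third bin. Mmp14 was 201, 238, 263 and 258 CPM, and Mmp2 and Timp2 were lower in the last bin (729 and 990.2 CPM) than in the first (918 and 1208 CPM). Cell by cell, a Timp1 UMI was present in 59.2% (52.3 to 65.9) of 211 fibroblasts with a Cthrc1 UMI and in 32.3% (31.0 to 33.7) of the others. Timp3 was present in 67.6% (61.3 to 73.5) of 238 fibroblasts with an Mmp3 UMI and in 55.2% (53.8 to 56.7) of the others, whereas Timp1 was present in 32.4% and 33.6%. These cells share 1 library, and the bins and the subset gates share the Postn gene.

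Across macrophage states and monocytes, all 7 members with 100 UMIs differed at least 2-fold between the highest and the lowest class, beside 44.7% of the 7643 genes compared. The median log2 range was 2.47 over the members and 0.92 over all genes. For Mmp2, Timp1 and Timp3 this call carries little, since every class lay near the lymphocyte level. Their highest class, the classical monocytes, was 1.47-fold (0.910 to 2.38), 1.48-fold (0.892 to 2.47) and 1.57-fold (0.950 to 2.60) over T and B cells with few C1q UMIs. The highest levels of Mmp12, Mmp14, Mmp19 and Timp2 lay above that background. Mmp12 and Mmp14 reached 100 UMIs only through the Cd74-high macrophages, where they were high, so the minimum favoured their calls. The count of calls describes the members without supporting a claim on them.

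Timp2 marked the Folr2 macrophages, cells with the receptor and scavenger genes of long-resident heart macrophages (Folr2, Lyve1, Timd4, Cd163). It was 1133 CPM (1088 to 1180) in 332 Folr2 cells, 373 (358 to 388) in 1059 Cd74-high cells, which are rich in the MHC class II invariant chain, 235 (193 to 284) in non-classical and 81.0 (67.5 to 96.4) in classical monocytes. No interval overlapped another. The Folr2 level was 3.04-fold that of Cd74-high cells and 14.0-fold (11.7 to 16.9) that of classical monocytes, and it lay close to the 1116 CPM of fibroblasts. With the level of all T and B cells, macrophage RNA included, subtracted, the ratio to classical monocytes was 486. The monocytes were then at the floor of 3 counts, which sets the size of this ratio. After thinning, 88.6% of Folr2 cells and 15.01% of T and B cells with few C1q UMIs had a Timp2 UMI.

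Mmp12 had the opposite pattern. Cd74-high macrophages held 199 CPM (188 to 210) and Folr2 macrophages 3.88 (1.68 to 7.65), a ratio of 51.3 (26.0 to 119). Against 3 counts in the monocyte classes, which held none, Cd74-high cells were at least 103-fold higher than classical and at least 31.0-fold higher than non-classical monocytes. The ratio to classical monocytes was 67.5 with each cell weighted equally and 10.8 with Leiden clusters. The UMIs lay in a minority of cells: 131 of 1059 Cd74-high cells had one at a median depth of 5434 UMIs, 32 cells with 10 or more held 980 of 1262 UMIs (77.7%), and 1 cell held 261. Without that cell the level was 159 CPM. After thinning, 9.25% of Cd74-high cells had a UMI. Macrophages with an Mmp12 UMI had an Il1b UMI (an inflammatory cytokine) in 75.2% of 109 cells (66.0 to 83.0), against 48.3% (45.9 to 50.6) of the others. They had a Timp2 UMI in 47.7% (38.0 to 57.5) against 69.4% (67.2 to 71.6). Within Cd74-high cells alone, Il1b was present in 79.6% (70.3 to 87.1) of cells with Mmp12 and 63.4% (60.2 to 66.4) of the others, and Timp2 in 45.9% (35.8 to 56.3) and 59.2% (56.0 to 62.3), with overlapping intervals for Timp2.

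Mmp14 was likewise higher in Cd74-high cells, with 35.5 CPM (31.0 to 40.5) in Cd74-high and 3.88 (1.68 to 7.65) in Folr2 macrophages, a ratio of 9.15 (4.56 to 21.5). It was 3.87 with Leiden clusters, 5.10 with cells counted in every gate, 15.6 with doubled gates and 18.8 with the T and B level subtracted, so the direction held while the size did not. The Folr2 level was at the background of T and B cells with few C1q UMIs (3.32 CPM). Mmp19 was 43.1 CPM in classical monocytes, 19.9 in Cd74-high and 9.70 in Folr2 macrophages, a 4.44-fold range (2.66 to 7.72; 7.09-fold with Leiden clusters), with non-classical monocytes at 14.97 (6.02 to 30.8) overlapping both macrophage states.

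The Arg1 state held 26 macrophages and was left out of the ranges, but its values differed from the other states. Timp1 was 123 CPM (78.0 to 185), from 23 UMIs in 9 cells, 8.67-fold (5.23 to 13.8) over Cd74-high macrophages, and 89.1 CPM without the richest cell. Mmp19 was 69.6 CPM (37.1 to 119), from 13 UMIs in 5 cells, and 44.0 without the richest. Mmp14 was 64.2 CPM (33.2 to 112), Timp2 567 CPM, and Mmp2, Mmp3, Mmp9 and Mmp12 had no UMI. Arg1 macrophages, with genes of wound-type macrophages, were thus the 1 macrophage state whose Timp1 exceeded the lymphocyte background. The fibroblast marker Dcn was 171 CPM in the Arg1 state, from 32 UMIs, and 359 CPM in Cd74-high cells. The part of fibroblast RNA in the Arg1 values was not tested.

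**Figure D3:**
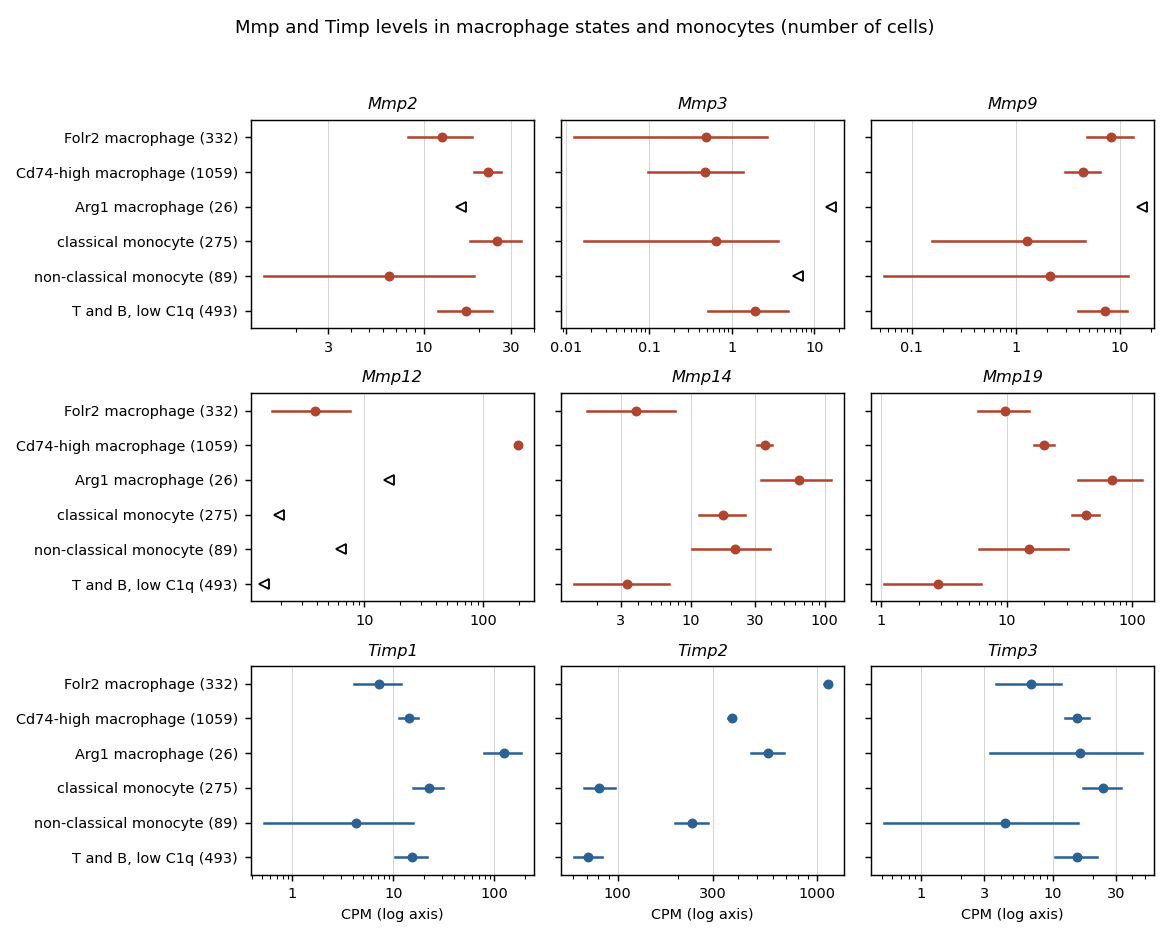
Level of each gene (CPM, log axis, different range in each panel) in 3 macrophage states, both monocyte classes and, as background, T and B cells with few C1q UMIs. Lines are exact 95% Poisson intervals and open triangles are classes at 0 UMIs drawn at 3 counts. Timp2 is highest in Folr2 cells (1133 CPM), Mmp12 in Cd74-high cells (199 CPM) and Timp1 in Arg1 cells (123 CPM).

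Binning the macrophages by thinned Folr2 UMIs gave the same contrast in steps. From 1185 cells without a Folr2 UMI to 182 cells with 4 or more, Timp2 went from 402 to 731, 936 and 1252 CPM. Mmp12 went from 177 to 32.8, 5.87 and 5.26 CPM, and Mmp14 from 35.8 to 17.04, 9.78 and 4.39 CPM. Along Cd74, Timp2 was 959 CPM in cells with under 10 UMIs, 750, 741 and 501 CPM in the next bins and 381 CPM in cells with 100 or more. Mmp12 took no such even course and was 7.53, 16.7 and 1.25 CPM in the 3 lower bins and 216 and 179 CPM in the 2 upper ones.

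**Figure D4:**
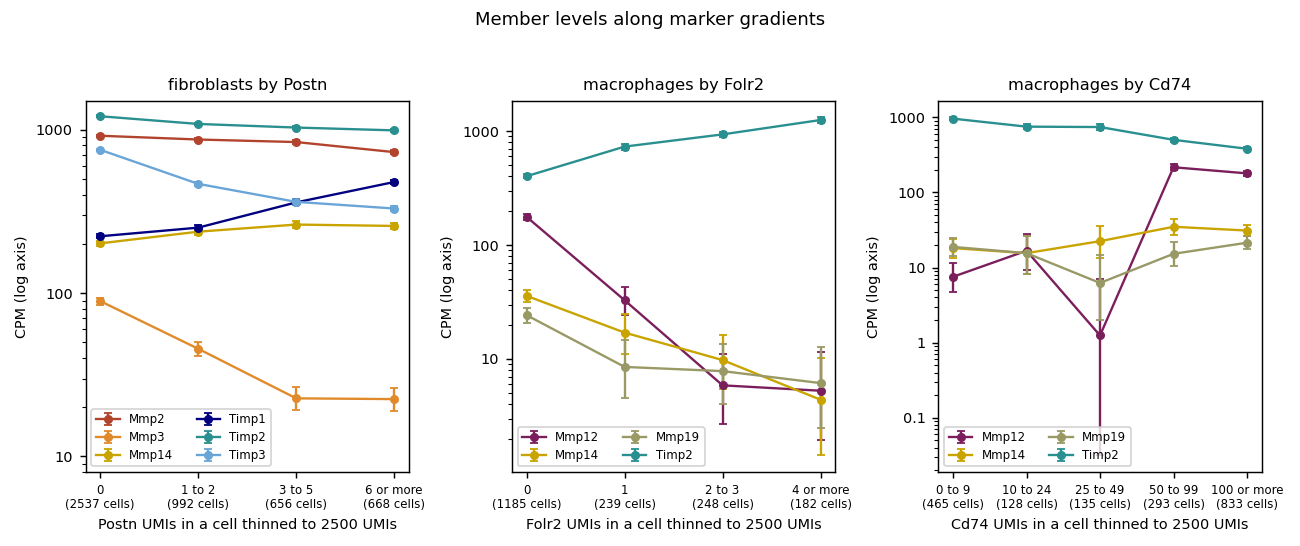
Levels (CPM, log axis) of members in fibroblasts binned by Postn UMIs and in macrophages binned by Folr2 or Cd74 UMIs, the bins set on cells thinned to 2500 UMIs and the levels on all UMIs; bars are exact 95% Poisson intervals. Timp1 and Timp3 cross along Postn, Timp2 and Mmp12 move in opposite directions along Folr2, and Mmp12 is high in the 2 upper Cd74 bins.

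In endothelium, 4 members reached 100 UMIs over the 3 named classes and all 4 differed at least 2-fold, beside 29.2% of the 3991 genes compared. The median log2 range was 1.68 over the members and 0.63 over all genes. Mmp2 reached 100 UMIs only through the endocardial-type cells, where it was high, so the minimum favoured its call. The 70 lymphatic cells were highest for 3 of the 4. Timp3 was 1977 CPM (1836 to 2126) in lymphatic, 733 in capillary-type and 708 in endocardial-type cells, 2.79-fold (2.50 to 3.13) from highest to lowest. Timp2 was 1104 CPM (999 to 1217) in lymphatic, 288 in endocardial-type and 161 in capillary-type cells, a 6.87-fold range (5.75 to 8.23). It was 341-fold with the level of all T and B cells, macrophage RNA included, subtracted. That left capillary-type cells at the floor of 3 counts, which sets the size of this range. Mmp14 was 188 CPM (146 to 237) in lymphatic, 96.3 in endocardial-type and 76.4 in capillary-type cells, a 2.46-fold range (1.76 to 3.41). Lymphatic cells thus held Timp2 at the fibroblast level and the highest Timp3 of any class.

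Mmp2 was the exception, with 139 CPM (114 to 168) in 117 endocardial-type cells, 43.5 in capillary-type and 38.1 in lymphatic cells, 3.66-fold (2.09 to 6.91) from highest to lowest and 2.38-fold with Leiden clusters. The endocardial-type cells also held more of the fibroblast gene Dcn, at 1803 CPM against 296 in capillary-type and 424 in lymphatic cells. Col1a1 was 65.0, 29.3 and 46.2 CPM and Gsn 589, 311 and 392 CPM in the same classes. The part of fibroblast RNA in the Mmp2 difference was not tested. Timp1 was low, at 44.2 CPM in endocardial-type, 24.5 in lymphatic and 22.2 in capillary-type cells, with 68 UMIs in all.

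The sum of the 3 inhibitors over the sum of the 6 enzymes, in UMIs, gives a ratio that can be compared between classes but not read as a balance of proteins. It was 1.68 (1.66 to 1.70) in fibroblasts, lowest in the Cxcl14/C3 subset (1.22, 1.16 to 1.29) and highest in Igfbp3/Osr1 (2.87, 2.51 to 3.29). With cells counted in every gate, Cthrc1/Postn was highest (2.18, 2.10 to 2.27), with Igfbp3/Osr1 at 2.11 (1.94 to 2.30) and Cxcl14/C3 still lowest (1.47). In Folr2 macrophages it was 29.6 (23.7 to 37.4), the highest value of all, and in Cd74-high macrophages 1.43 (1.34 to 1.52), against 17.2 (14.95 to 19.8) and 2.01 with cells counted in every gate. Lymphatic cells had 13.6 (10.9 to 17.2), capillary-type 7.42 and endocardial-type cells 4.32. Neutrophils had 1.84 (1.54 to 2.21), and 0.600 (0.368 to 0.962) when C1q UMIs were few, the 1 value below 1 whose interval excludes 1. T and B cells, taken as background, had 4.96.

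**Figure D5:**
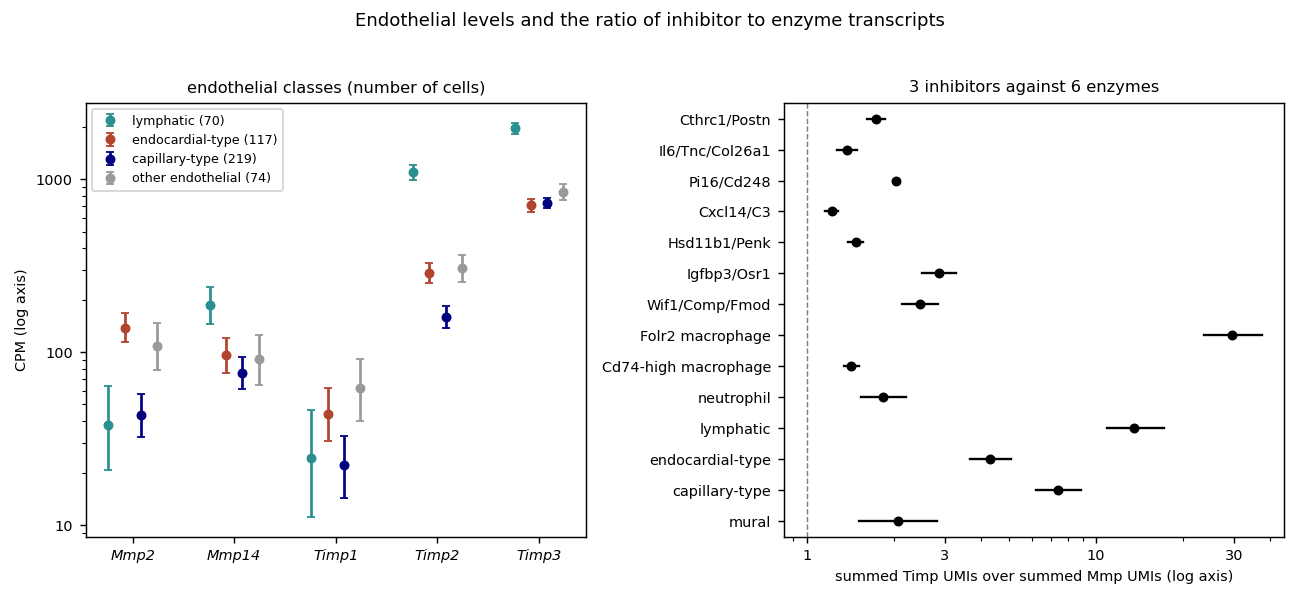
Left, levels of 5 members (CPM, log axis) in endothelial classes; right, summed UMIs of Timp1, Timp2 and Timp3 over those of the 6 enzymes in 14 classes (log axis, dashed line at 1). Bars are exact 95% intervals. Lymphatic cells are highest for Timp2 and Timp3, and Folr2 macrophages have the highest ratio (29.6).

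Mmp3 and Mmp12 lie in a cluster of metalloproteinase genes on chromosome 9. On its plus strand, in the order of their starts, lie Mmp13 (7272514-7283331), Mmp12 (7344381-7369499), Mmp3 (7445822-7455975) and Mmp8 (7558456-7568485), and Mmp1b, without a UMI, overlaps Mmp12 on the other strand. The collagenase Mmp13 was highest in Cd74-high macrophages (90.9 CPM, 83.6 to 98.6) like its neighbour Mmp12, Mmp3 in fibroblasts, and the neutrophil collagenase Mmp8 in neutrophils (136 CPM, 109 to 168) and classical monocytes (68.8 CPM). Fibroblasts held 0.351 CPM of Mmp13 and macrophages 0.785 CPM of Mmp3. Mmp13 and Mmp12 thus shared their highest class, and Mmp3 and Mmp8 had others.

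The other genes of the pathway came from a list of 53. Of 17 further metalloproteinases, 6 could be compared between fibroblasts and macrophages. Mmp11, Mmp16, Mmp17, Mmp23 and Mmp28 were at least 2-fold higher in fibroblasts and Mmp13 lower, beside 29.7% and 14.5% of the 12949 genes compared. Mmp23 had the most UMIs, with 294 CPM in fibroblasts and 399 (329 to 479) in Igfbp3/Osr1 cells, and Mmp11 had 21.01 CPM in fibroblasts. Among the rarer genes, Mmp16 was at 16.8, Mmp27 at 2.46 and Mmp28 at 2.61 CPM in fibroblasts. Mmp17 was highest in mural cells (26.4 CPM), Mmp15 in capillary-type cells (79.0 CPM) and Mmp25 in dendritic cells (19.9 CPM). Mmp7, Mmp10, Mmp1a and Mmp1b had no UMI.

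Of 4 further inhibitors, Timp4 was a capillary transcript, with 161 CPM (138 to 186) in capillary-type cells and 0.427 in fibroblasts, and it was at least 2-fold higher in endothelium. Reck, a membrane-anchored inhibitor, was 32.7 CPM in fibroblasts and at least 2-fold higher there than in macrophages. A2m and Pzp had 35 and 1 UMIs. With the members, the 4 Timp genes had 4 different highest classes: Timp1 in Cthrc1/Postn fibroblasts, Timp2 in Pi16/Cd248 fibroblasts, Timp3 in lymphatic and Timp4 in capillary-type endothelium.

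Among 15 Adam and Adamts enzymes, 10 were at least 2-fold higher in fibroblasts than in macrophages, 1 lower (Adam8) and 4 neither. The aggrecanase Adamts5 had 570 CPM and the procollagen peptidase Adamts2 347 CPM in fibroblasts. Of the plasminogen system, which activates several proenzymes, Plat and Serpine2 were higher in fibroblasts and Plau and Plaur lower. Serpine2, a protease inhibitor, had 575 CPM in fibroblasts. Of 6 genes for activation, docking and clearance, 4 were higher (Bsg, Lrp1, Lcn2 and Cd63), Cd44 was lower and 1 was neither. The Lcn2 call compared low levels, 6.02 CPM in fibroblasts and 1.05 in macrophages, beside 4.23 in T and B cells. Lcn2 was 78.8 CPM in endothelium and 816 in neutrophils. Cd63, a binding partner of Timp1, had 1247 CPM in fibroblasts, and Bsg, an inducer of metalloproteinases, 724 CPM in fibroblasts and 844 in endothelium. Of 5 cathepsins, Ctsk and Ctsl were higher in fibroblasts and Ctsb and Ctss lower, with Ctsl at 1628 CPM in fibroblasts and Ctsb at 3282 CPM in macrophages. Between endothelium and fibroblasts, the 6 groups in the order given had 6, 2, 14, 5, 6 and 5 genes compared. Of these, 1, 1, 4, 1, 1 and 0 were higher and 4, 0, 7, 2, 2 and 1 lower, beside 12.0% and 14.7% of all genes. Between neutrophils and classical monocytes, Adam8, Lcn2, Cd63 and Ctsd were higher and Plaur lower, among 16 compared. Over all genes compared, 6.21% were higher and 6.92% lower. Cd63 was 471 CPM in neutrophils, 52.1 in classical monocytes and 538 in macrophages, and Ctsd 658, 275 and 692 CPM. Neutrophils held C1qa at 4692 CPM and classical monocytes at 28.9, and the part of macrophage RNA in these differences was not tested.

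Genes outside the gates whose levels ran most like each member were found by Pearson's r of log2(CPM + 10) over 20 classes, among 7694 genes. All classes come from 1 library, and some share a lineage. Mmp2 was most like Islr (0.983), Bicc1 and Dcn, Mmp3 like Fbln1 (0.926), Gsn and Lsamp, and Timp1 like Mfap5 (0.964), Sfrp2 and Dnajc25, so these 3 members ran with genes of fibroblasts. Mmp9 was most like Ngp (0.932), Camp and Hdc, which include neutrophil granule genes. Mmp12 was most like Zmynd15 (0.828), Retnla and Ciita, the last a regulator of MHC class II genes. Mmp14 was most like ENSMUSG00000120849 (0.972), which the files list without a symbol, Afap1 and Arhgef40. Mmp19 was most like Niban1 (0.806), Ifi211 and Tmem219, Timp2 like Siae (0.925), Pmp22 and Hyi, and Timp3 like Nfib (0.972), Clstn1 and Grb10. Among the members themselves, the highest values were 0.950 for Mmp2 with Timp1, 0.844 for Mmp14 with Timp3 and 0.810 for Mmp2 with Mmp3.

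Some members overlap other genes, and reads could then be shared. Timp1 lies within Syn1 (165 UMIs) and Timp3 overlaps Syn3 (228 UMIs), both on the other strand, and Timp2 overlaps Cep295nl (278 UMIs) on the same strand. These 3 partners had few UMIs beside the 12675, 26636 and 56545 UMIs of the members over all cells. Timp4 overlaps Syn2 on the other strand, whose 512 UMIs exceed the 228 of Timp4, so the Timp4 values are uncertain.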

How the data were processed

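The 10x 3′ version 3.1 gene expression library was analysed as deposited by the authors, as whole-number UMI counts per gene and cell without normalization. Live cells were released with dispase, collagenase II and elastase, per the labels' protocols. The submitters' processing notes name STARsolo, Scanpy and mm10, with no version. The hashtag library was not analysed here.

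With Python 3.11.15, scanpy 1.11.5, numpy 2.4.6, scipy 1.17.1, matplotlib 3.10.9, igraph 0.11.9, scikit-learn 1.9.0 and pandas 2.3.3, Scrublet doublets were removed. A cell joined a lineage when that panel had 5 UMIs or more from 3 genes and 75% of the UMIs of 4 panels, and a subset or state by marker gates (for fibroblast subsets 2 genes and 4 UMIs, for Cd74-high 50 Cd74 UMIs, for Arg1 2 UMIs). UMIs were summed per class and given as CPM with exact Poisson intervals. Ratios have exact binomial intervals and shares of cells Clopper-Pearson intervals. Reads were already collapsed to UMIs. A gene with 100 UMIs or more over the classes compared was called at 2-fold, a class at 0 being set to 3 counts, and the same calls over all genes are the background. Shares, co-detection and bins used cells thinned to 2500 UMIs. Classes of fewer than 30 cells stayed out of ranges. The scripts were checked on simulated data.

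The members and all lists were chosen with earlier results of these data known. The text names the 9 members, the 2 genes with most UMIs of each of 6 roles (1 of them is not reported here), other Mmp and Timp genes with 100 UMIs or more, and the 3 genes most like each member among those with 500 UMIs or more, with called list genes named after their values were seen. Alternatives were doublets kept, a purity of 90%, doubled subset gates, cells counted in every gate, equal cell weights, median-of-ratios scaling, subtraction of the T and B level, Leiden clusters (2000 variable genes without members, 30 components, 15 neighbours, resolution 1), 20 UMIs and 3-fold. The T and B level subtracted was that of all T and B cells, those with macrophage RNA included. Chosen after seeing the data were a C1q limit for neutrophils, inclusion of the Arg1 state, and removal of the richest Mmp12 or Mmp3 cells.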

Additional observations from a re-analysis of the deposited data

Results flagged for a closer look

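The 331 cells left out as ambiguous held Mmp9 at 23.9 CPM (18.6 to 30.2), above the 8.46 CPM of T and B cells, in cells that no comparison uses. Of their 69 Mmp9 UMIs, 55 were in 53 cells that also passed the neutrophil gate, where the level was 109 CPM. These 53 cells held the fibroblast gene Lum at 1768 CPM and C1qa at 388 CPM, and the other 278 cells held Mmp9 at 5.88 CPM.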

How the results depend on the processing

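No paired analysis was possible because the data are 1 pooled library whose cells were not tied to mice, and leaving out a replicate was not possible for the same reason.

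Shares over all genes were not computed under the alternatives, so the counts in this paragraph have no background. Counts of called members that moved by more than 1.5 times were as follows. At a minimum of 20 UMIs, fibroblasts against macrophages had 2 members lower, endothelium against fibroblasts 1 higher, and neutrophils against classical monocytes 4 higher and 1 lower. The count higher in neutrophils was 1 at a purity of 90%, 6 with Leiden clusters and 1 with at most 2 C1q UMIs, where Mmp9 had fewer than 100 UMIs. At 3-fold, 2 members were called across endothelial classes. Smaller moves, of 1 member each, were 4 across fibroblast subsets (every gate, Leiden clusters or 3-fold) and 6 with the T and B level subtracted, 6 across macrophage states and monocytes at a purity of 90% and 8 at 20 UMIs, and 5 across endothelial classes with Leiden clusters. The monocyte ratios of members near background reversed with Leiden clusters, classical over non-classical being 0.0804 for Mmp2, 0.565 for Timp1 and 0.0867 for Timp3, and the cause was not tested.

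Of 233 called single ratios recomputed over the alternatives, 222 stayed past 2-fold and 11 did not. Besides ratios near background, these were Mmp14 between endothelium and fibroblasts (0.548 with Leiden clusters, 0.437 as reported), Mmp14 across fibroblast subsets (1.23 with cells in every gate) and Mmp19 there (1.93 at a purity of 90%, 1.05 with cells in every gate). Cd74-high Mmp12 over classical monocytes was 10.8 with Leiden clusters and 82.2 without its richest cell. Median-of-ratios scaling divided CPM by factors whose log2 was 0.04 for fibroblasts, -0.22 for macrophages, 0.19 for endothelium, -0.29 for neutrophils and -0.26 for classical monocytes, and lost none of 30 calls. Depth limits Mmp9 and Mmp12 outside their main classes. All values of the Arg1, Wif1/Comp/Fmod and Igfbp3/Osr1 classes rest on few cells (26, 34 and 48), and several of them on few UMIs.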
